A study of Mus musculus with 6 samples.

Results

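This account covers 10 genes that regulate plasma cells or serve their secretory machinery, in RNA from the femoral bone of mice that ran on a wheel and of mice that did not. The genes were given as a list of symbols (Jchain, Sdc1, Xbp1, Prdm1, Irf4, Tnfrsf17, Tnfrsf13b, Mzb1, Derl3 and Pou2af1), and each symbol matched 1 of the 55484 genes in the deposited tables. All 10 were among the 15508 genes that the authors tested. The mice were male, wild-type C57BL/6 animals on normal chow. From 6 weeks of age they lived singly for 6 weeks, either in a cage without a wheel (sedentary, ND/SED, 3 libraries) or in a cage with free access to a running wheel (ND/WCR, 3 libraries), and they were 12 weeks old at the end. The comparison asked which femoral transcripts differed after voluntary running. How marrow and attached tissue were treated before extraction is not stated in the labels. The tables give 1 pooled FPKM per group, a level per kilobase of transcript scaled to the fragments sequenced, together with a lower and an upper bound of unstated level. No spread between mice is therefore known, and a gene counts as called at a q-value under 0.05 in the authors' deposited table. The smallest steps among low FPKM values correspond to effective depths of 13800000 to 17400000 fragments per library, provided that the group FPKM averages the 3 libraries after scaling.

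Plasma cells are the antibody-secreting end stage of the B lineage, and the bone marrow is a main home of the long-lived ones. Irf4, Prdm1 (the gene of BLIMP-1) and Xbp1 form the core of the factors that turn a B cell into a secreting cell: Irf4 and Prdm1 set the programme and shut down B cell genes, and Xbp1 enlarges the endoplasmic reticulum (ER). Antibody is then assembled in the ER with the help of chaperones, misfolded chains are exported for degradation, and survival depends on receptors for the cytokines APRIL and BAFF. Most of these genes are not exclusive to plasma cells. Sdc1 is also made by epithelial and stromal cells, Xbp1 by most secretory cells, Prdm1 by T cells, macrophages and osteoclasts, and Irf4, Pou2af1 and Tnfrsf13b by B cells.

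Jchain was lower in the running mice, and it was the only call among the 10 genes. A lower FPKM was listed in running mice for 9 of the 10, with Sdc1 above, but the other 9 did not pass the authors' test. Over all tested genes 0.941% were called, 0.497% as lower, and a lower FPKM was listed for 51.8%. Jchain was also the only member with intervals apart, where 0.4% of tested genes were lower with intervals apart. The median log2 fold (running against sedentary mice, from log2(FPKM + 0.1), where low genes appear to change less than they do) was -0.21 for the 10 genes and -0.0067 for all tested genes. The folds of the 10 ran from -0.76 (Derl3) to 0.08 (Sdc1). As the members were chosen with earlier results of these data known, these counts and medians describe the list and do not test it. In bulk RNA, fewer plasma cells, less RNA per plasma cell and a difference in other cells that make these genes cannot be told apart.

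**Figure D1:**
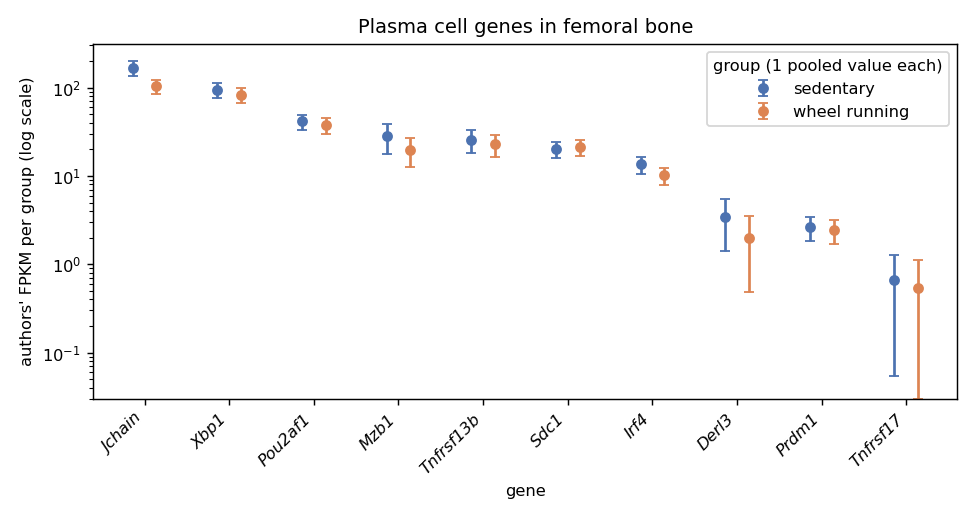
Authors' FPKM (log axis) of the 10 genes in sedentary (blue) and wheel running mice (orange), 1 pooled value per group, with bars for the authors' interval; the lower bar of Tnfrsf17 in running mice reaches 0 and leaves the axis. The intervals of the groups are apart for Jchain (136.8 to 200.6 and 84.4 to 122.8 FPKM) and overlap for the other 9.

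The levels of the 10 genes spread over a 255-fold range in sedentary mice, from 0.662 FPKM for Tnfrsf17 to 169 FPKM for Jchain. In running mice the range was 191-fold, from 0.543 to 104 FPKM. These are levels per transcript length, so they can be set against each other. In sedentary mice the order from the top was Jchain, Xbp1, Pou2af1, Mzb1, Tnfrsf13b, Sdc1, Irf4, Derl3, Prdm1 and Tnfrsf17. Neighbours whose intervals overlapped in that group were Pou2af1 with Mzb1, Mzb1 with Tnfrsf13b, Tnfrsf13b with Sdc1, Sdc1 with Irf4, and Derl3 with Prdm1. In running mice Mzb1 stood in sixth place after Tnfrsf13b and Sdc1, and Derl3 came after Prdm1, both within overlapping intervals. There the overlapping neighbours were Jchain with Xbp1, Tnfrsf13b with Sdc1, Sdc1 with Mzb1, Prdm1 with Derl3, and Derl3 with Tnfrsf17. The interval of Jchain lay above that of Xbp1 in sedentary mice and overlapped it in running mice, where Jchain was 1.25 times Xbp1 instead of 1.80 times. Jchain made up 42.4% of the summed FPKM of the 10 genes in sedentary and 34.2% in running mice.

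Jchain (ENSMUSG00000067149, chromosome 5, 88519809 to 88527891, minus strand, GRCm38) encodes the joining chain, a small cysteine-bonded polypeptide that links IgM into pentamers and IgA into dimers and lets them bind the epithelial transport receptor. Sedentary mice had 169 FPKM (136.8 to 200.6) and running mice 104 FPKM (84.4 to 122.8). The running value was 38.6% lower, and 14.02 FPKM separated the 2 intervals. The log2 fold was -0.70, and 2.59% of all tested genes had a lower one. In the authors' deposited table Jchain had a p-value of 5e-05, the smallest p the table holds, shared by 108 genes, and a q of 0.00718. Of the 77 genes called lower, 66 fell further than Jchain. The call depends on how the p-value is formed, which is not stated. A normal p of the authors' test statistic was tried after seeing the data, and it was larger than the deposited p for all 10 members. For Sdc1 the authors' deposited p was 0.498 and the normal p of the statistic 0.707, so the normal p may not suit this statistic. The test statistic in the authors' deposited table was -3.68 for Jchain, and a two-sided normal p of that statistic is 0.00023, which gives q = 0.1002 after Benjamini-Hochberg adjustment over the 15490 genes with a statistic. Under that reading 25 genes (0.161%) were called over all and none of the 10, of which 3 had a p under 0.05 in the authors' deposited table.

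Jchain and the immunoglobulin heavy chains it joins can be set side by side within a group. Ighm, the constant gene of IgM, fell from 1001 to 385 FPKM, and Igha, that of IgA, rose from 273 to 406 FPKM. The sum of the 2 was 1275 FPKM in sedentary and 791 FPKM in running mice, a log2 difference of -0.69 beside the -0.70 of Jchain. Jchain thus equalled 13.2% of the summed Ighm and Igha FPKM in sedentary mice and 13.1% in running mice. Against Ighm alone it was 16.8% and 26.9%, and against Igha alone 61.8% and 25.5%. Jchain equalled 9.29% of Igkc, the kappa light chain constant gene, in sedentary and 9.65% in running mice. These ratios were chosen after the values were seen, have no error between mice and take membrane and secreted forms of the heavy chains together.

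**Figure D2:**
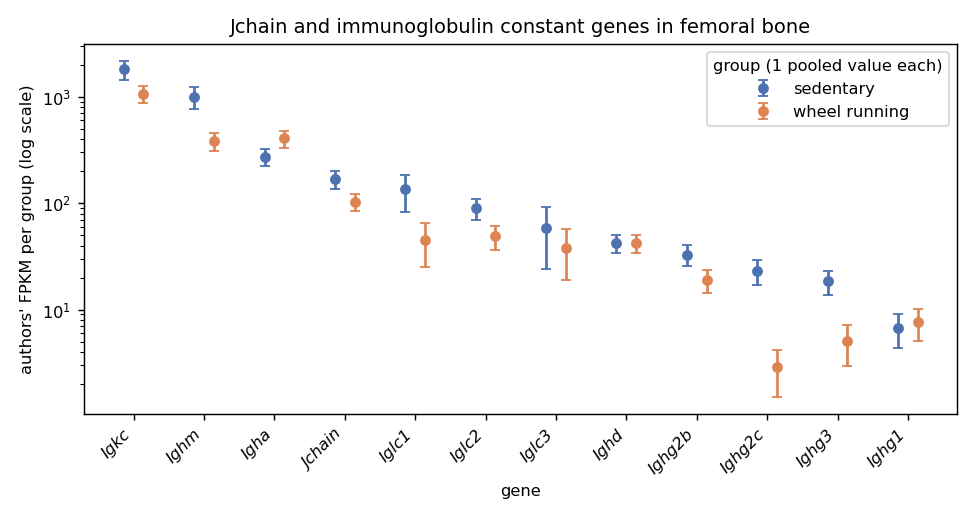
Authors' FPKM (log axis) of Jchain and of the 11 tested immunoglobulin constant genes in sedentary (blue) and wheel running mice (orange), 1 pooled value per group with the authors' interval. Igha (273 and 406 FPKM) stands higher in running mice, while Jchain, Igkc and Ighm stand lower with intervals apart.

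Of 13 listed constant genes 11 were tested, of which 7 were called lower and 1 higher, with a median log2 fold of -0.78. The called lower genes besides Ighm and Igkc (1815 to 1073 FPKM) were Ighg2b (32.8 to 19.1), Ighg2c (23.2 to 2.86), Ighg3 (18.4 to 5.08), Iglc1 (135 to 45.01) and Iglc2 (90.0 to 49.1). With the normal p of the test statistic Ighm, Ighg2c and Ighg3 were still called. The close copies among the lambda and the IgG genes could share fragments, so their single values are uncertain. Ighd, the IgD gene of mature naive B cells, stood at 42.5 FPKM in both groups. Ighg1 (6.78 and 7.57 FPKM) and Iglc3 (57.9 and 38.3 FPKM) were not called, and Ighe and Iglc4 were listed at 0.

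None of the 4 transcription regulators passed the test. Irf4 (chromosome 13, 30749226 to 30766976, plus strand), the interferon regulatory factor that plasma cells need to form and persist, came nearest. Its FPKM was 13.5 (10.6 to 16.4) in sedentary and 10.2 (7.99 to 12.3) in running mice, 24.8% lower, with intervals that overlapped by 1.70 FPKM. In the authors' deposited table the p of Irf4 was 0.001 and its q 0.0857, so it would be called at a q under 0.1, where 0.587% of tested genes were called lower. Its deposited test statistic was -1.89, for which a two-sided normal p is 0.059.

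Xbp1 (chromosome 11, 5520659 to 5525893, plus strand) stood at 93.8 FPKM (75.4 to 112.2) in sedentary and 83.0 FPKM (66.5 to 99.6) in running mice, a log2 fold of -0.18. The active XBP1 protein comes from a transcript that IRE1 has spliced in the cytoplasm, and a value per gene does not separate the spliced from the unspliced form. Pou2af1 (chromosome 9, 51213708 to 51240080, plus strand), the B cell coactivator of octamer-binding factors, stood at 41.4 FPKM (33.5 to 49.2) and 37.4 FPKM (30.2 to 44.7), a log2 fold of -0.14. The annotation places a sense intronic transcript, Gm47828, within Pou2af1 on the same strand, and it was listed at 0.659 and 0.243 FPKM, so the pair could share fragments. Prdm1 (chromosome 10, 44437177 to 44528501, minus strand) stood at 2.64 FPKM (1.83 to 3.45) and 2.44 FPKM (1.70 to 3.17), a log2 fold of -0.11. In each of these 3 the intervals of the groups covered each other's FPKM, so no difference could be resolved. The octamer-binding partners of Pou2af1 were uncalled as well, Pou2f1 at 5.62 and 5.59 FPKM and Pou2f2 at 6.39 and 5.48 FPKM.

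Among the surface molecules, Sdc1 (chromosome 12, 8771323 to 8793715, plus strand), the heparan sulfate proteoglycan syndecan-1 or CD138 by which plasma cells are commonly sorted, was the member listed higher in running mice. It stood at 19.96 FPKM (15.9 to 23.98) in sedentary and 21.1 FPKM (16.8 to 25.4) in running mice, a log2 fold of 0.08 that was not called. Tnfrsf13b (chromosome 11, 61126755 to 61149372, plus strand), which encodes TACI, a receptor for BAFF and APRIL on B cells and plasma cells, stood at 25.6 FPKM (18.1 to 33.1) and 23.0 FPKM (16.5 to 29.4). Tnfrsf17 (chromosome 16, 11313812 to 11320074, plus strand) encodes BCMA, the APRIL receptor of plasma cells. It was the 1 member under 1 FPKM, at 0.662 (0.0549 to 1.27) and 0.543 (0 to 1.11) FPKM. With its 1 annotated transcript of 815 bases, these levels correspond to about 17 fragments over the 3 sedentary and 15 over the 3 running libraries, and the difference of Tnfrsf17 lay far within its intervals. Tnfrsf13c, the BAFF receptor of mature B cells, was uncalled at 14.7 and 15.0 FPKM.

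Both secretory members were listed lower without a call. Mzb1 (chromosome 18, 35647267 to 35649367, minus strand) encodes an ER chaperone partner that helps assemble IgM. Its FPKM was 28.4 (17.7 to 39.1) in sedentary and 19.6 (12.6 to 26.6) in running mice, 30.9% lower with overlapping intervals. In the authors' deposited table the p of Mzb1 was 0.00695 and its q 0.336. With Jchain and Irf4 it was 1 of 3 members with an unadjusted p under 0.05, all 3 lower, where 2.22% of tested genes were lower at that level. Other lists also held genes with such a p. Of 11 immunoglobulin constant genes 7 were lower and 1 higher, and of 11 survival and niche signals 1 was lower and 1 higher. Only lower were 1 of 16 B cell surface and signalling genes and 1 of 29 unfolded protein response genes. So were 2 of 10 plasmacytoid dendritic cell and 1 of 12 neutrophil markers. Only higher were 1 of 12 B cell identity factors and 3 of 10 macrophage markers. So were 6 of 10 osteoblast and osteocyte and 4 of 9 skeletal muscle markers. Of the 13 other plasma cell genes tested, 0 had such a p. The annotation places a second gene, SPATA24, over Mzb1 on the same strand, and it was listed at 0 and 0.00023 FPKM.

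Derl3 (chromosome 10, 75893413 to 75895941, plus strand) encodes a derlin, a membrane protein of the channel that exports misfolded proteins from the ER, and is the family member typical of heavily secreting cells. It stood at 3.44 FPKM (1.42 to 5.46) in sedentary and 1.99 FPKM (0.485 to 3.49) in running mice. Its log2 fold of -0.76 was the lowest of the 10, and its interval reached 58.8% (sedentary) and 75.6% (running) of the FPKM to either side. In the authors' deposited table the p of Derl3 was 0.0546 and its q 0.916. If all its fragments came from its longest transcript of 1321 bases, they would number about 165 over the sedentary and 101 over the running libraries. The relatives Derl1 (39.0 and 39.4 FPKM) and Derl2 (19.6 and 19.2 FPKM), made by most cells, were not called. Derl3 was 5.54% of the summed FPKM of the 3 derlin genes in sedentary and 3.28% in running mice.

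**Figure D3:**
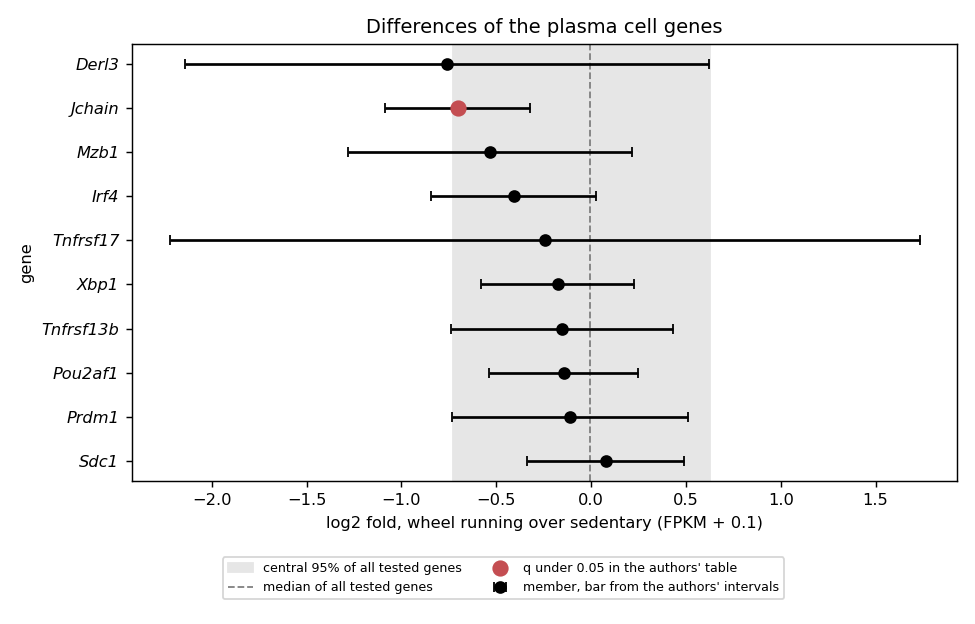
Log2 folds (wheel running over sedentary, FPKM + 0.1) of the 10 genes, ordered from the lowest, with bars that combine the relative half-widths of the authors' 2 intervals as the root of their summed squares. The grey band holds the central 95% of all tested genes (-0.73 to 0.63): Derl3 (-0.76) lies just outside it with the second widest bar, and Jchain (-0.70), the called gene, just inside with the narrowest.

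The upstream sequences of the called gene and of the 2 members whose upstream window held an ER stress motif are shown to let these be compared. RefSeq (GRCm38.p6) gave a promoter for 9 of the 10 members, and the 250 bases before the annotated start were searched on both strands. The motifs were the octamer ATGCAAAT, on which Pou2af1 acts, TGACGTGG, the unfolded protein response element read by XBP1, and CCAAT followed by CCACG with 9 bases between, the ER stress response element. GAAA followed by GAAA with 2 bases between is a core read by interferon regulatory factors, and GGAA followed by GAAA with 2 bases between is the composite of ETS factors with IRF4, which can overlap that core. The sequences run 5′ to 3′ on the strand of the gene, in lower case with motif matches in capitals: Jchain from chr5:88527898-88528147 (minus strand), Derl3 from chr10:75893148-75893397 (plus strand) and Pou2af1 from chr9:51213440-51213689 (plus strand).
Jchain: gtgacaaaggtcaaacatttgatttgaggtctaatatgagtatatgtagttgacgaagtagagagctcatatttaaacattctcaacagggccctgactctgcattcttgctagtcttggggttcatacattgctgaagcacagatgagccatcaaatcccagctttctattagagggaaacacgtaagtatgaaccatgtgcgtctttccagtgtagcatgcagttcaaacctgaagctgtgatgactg
Derl3: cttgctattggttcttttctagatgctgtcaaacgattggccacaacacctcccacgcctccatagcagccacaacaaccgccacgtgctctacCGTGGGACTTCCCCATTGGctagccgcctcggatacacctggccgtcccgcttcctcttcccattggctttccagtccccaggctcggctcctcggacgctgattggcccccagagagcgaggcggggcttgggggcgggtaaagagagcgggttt
Pou2af1: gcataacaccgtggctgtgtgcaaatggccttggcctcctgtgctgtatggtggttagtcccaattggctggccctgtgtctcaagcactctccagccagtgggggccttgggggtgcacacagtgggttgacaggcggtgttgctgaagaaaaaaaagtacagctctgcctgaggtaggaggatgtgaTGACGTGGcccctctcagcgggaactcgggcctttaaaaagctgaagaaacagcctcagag
The window of Derl3 held the ER stress response element, read on the opposite strand, 156 to 138 bases before the start, an arrangement found in 0.113% of 32851 promoter windows. The window of Pou2af1 held the unfolded protein response element 61 to 54 bases before the start, found in 0.563% of windows. The window of Tnfrsf17 held the interferon regulatory core 101 to 92 bases before the start, found in 2.98% of windows. The Jchain window held none of the 5 motifs, nor did those of the other 5 members searched. The octamer was in 1.60% and the ETS composite in 2.30% of all windows. Of the 3 members with a match, Derl3 had a log2 fold of -0.76, Tnfrsf17 of -0.24 and Pou2af1 of -0.14, all uncalled.

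Other plasma cell genes were not called. Of 15 listed, 13 were tested, 11 with a log2 fold below 0 (10 after scaling both groups to an equal total) and none called, with a median of -0.11. The most expressed were Sec11c, a signal peptidase subunit (160 and 140 FPKM), Mcl1, a survival factor of plasma cells (117 and 118), Tent5c, a poly(A) polymerase active on immunoglobulin transcripts (108 and 102), and Txndc5, a disulfide isomerase (47.8 and 44.5). In the unfolded protein response and ER degradation list, none of 29 tested genes was called and the median was -0.09. Its most expressed genes were the chaperones Calr (282 and 253 FPKM), Hspa5 (235 and 214) and Hsp90b1 (194 and 173) and the disulfide isomerase Pdia3 (145 and 144). None of 24 tested genes of ER translocation and export was called, and their median of -0.03 turned to 0.01 after that scaling. Ppib, a proline isomerase of the ER, stood at 262 FPKM in both groups, and Sec61b, a subunit of the translocation channel, at 193 and 171. Bone, cartilage and granulocyte precursors also express these ER genes.

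**Figure D4:**
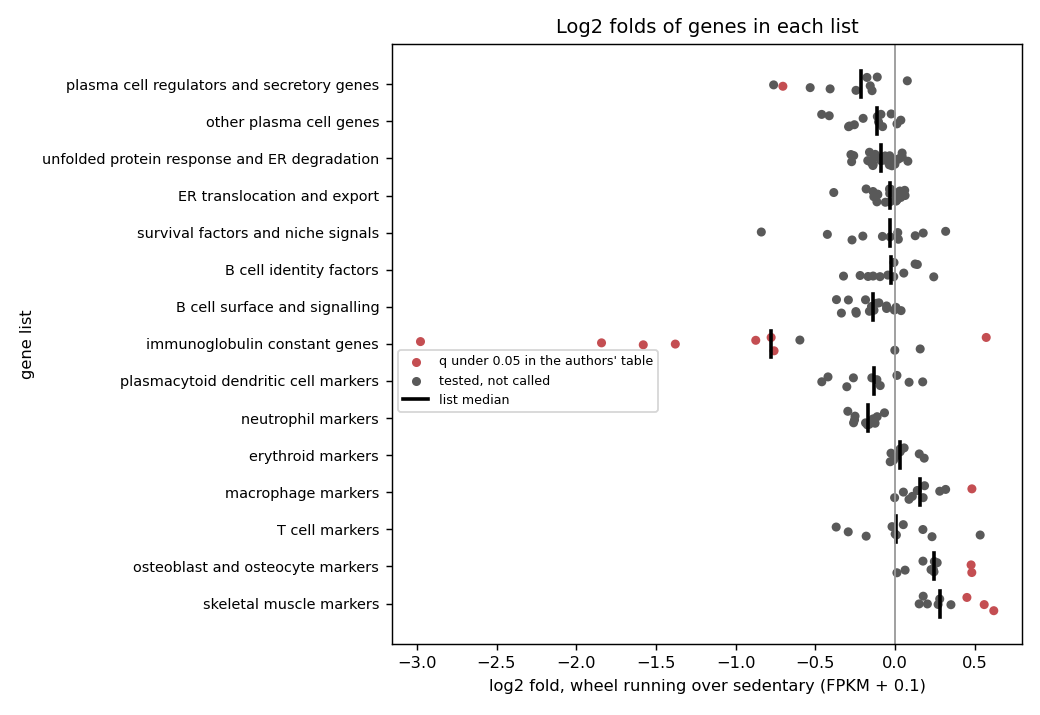
Log2 folds (wheel running over sedentary, FPKM + 0.1) of the tested genes of each list, 1 point per gene, red where the q in the authors' deposited table was under 0.05, with a black line at the list median and scatter up and down only for display. The 10 plasma cell genes have a median of -0.21 and 1 call, the immunoglobulin constant genes a median of -0.78 and 8 calls.

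None of the 11 tested survival and niche signals was called. Tnfsf13b, which encodes BAFF, stood at 10.3 FPKM (7.06 to 13.5) in sedentary and 7.65 FPKM (4.98 to 10.3) in running mice, and Tnfsf13, which encodes APRIL, at 7.18 (4.18 to 10.2) and 5.94 (3.04 to 8.84). Their receptors among the 10 genes, Tnfrsf13b and Tnfrsf17, were uncalled as given above. Cxcl12, the chemokine that holds plasma cells in the marrow, was at 860 and 973 FPKM, and its receptor Cxcr4 at 159 and 156. The adhesion molecule Vcam1 was at 171 and 213 FPKM, and the interleukin-6 coreceptor Il6st at 39.4 and 39.9.

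Genes of B cells were measured beside them, since several of the 10 are also made there. Of 12 B cell identity factors none was called, with a median of -0.03 that turned to 0.02 after that scaling. Of 16 B cell surface and signalling genes 14 had a log2 fold below 0 (13 after that scaling) and none was called, with a median of -0.14. Cd79a (101 and 94.2 FPKM) and Cd79b (96.5 and 86.3), the signalling chains of the B cell receptor, Cd37 (109 and 105) and Cd72 (78.6 and 66.4) led this list. The summed FPKM of these 16 genes was 676 in sedentary and 611 in running mice, a ratio of 0.904, against 0.761 for the 10 plasma cell genes and 0.593 for the immunoglobulin constant genes. Without Jchain the other 9 plasma cell genes summed to 229 and 199 FPKM, a ratio of 0.869. In the marker lists of other cells given below the ratio ran from 0.852 (neutrophil) to 1.22 (skeletal muscle). Whether these ratios differ was not tested.

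Markers of other cells were measured in the same libraries, and none was called lower. All 12 neutrophil markers had a log2 fold below 0 (median -0.17, none called), and their summed FPKM was 54764 in sedentary and 46679 in running mice. Plasmacytoid dendritic cells, which also express Irf4, Mzb1 and Derl3, had 7 of 10 markers below 0 (median -0.13, none called) and sums of 271 and 256 FPKM. Ly6d (70.2 and 63.5 FPKM), Bst2 (58.3 and 53.9) and Cox6a2 (39.5 and 44.6) led that sum. Of these 10 markers 2 were lower and 0 higher at an unadjusted p under 0.05 in the authors' deposited table. T cell markers were at 33.6 FPKM in sum in both groups (median 0.01, none of 10 called). Of 10 macrophage markers 9 lay above 0 (10 after equal-total scaling, median 0.16), with sums of 775 and 872 FPKM, and Cd163, a haemoglobin scavenger receptor, rose from 20.01 to 28.0 FPKM. Erythroid markers had a median of 0.03, none of 10 called, and sums of 9127 and 9656 FPKM. Osteoblast and osteocyte markers, present as the label femoral bone requires (Bglap at 3157 and 3184 FPKM), all lay above 0 (10 of 10, median 0.24, sums of 5585 and 5893 FPKM), and Mepe and Sost were called higher. Of 9 tested skeletal muscle markers all lay above 0 (median 0.28, sums of 1404 and 1718 FPKM), and Tcap, Myh1 and Myh2 were called higher. With the normal p of the test statistic none of these 6 higher calls was kept. No marker of the blood cell lists was at 0, and Pygm alone was listed at 0 among the muscle markers. The part of these cell types in the lower Jchain value was not tested.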

How the data were processed

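Libraries of polyadenylated femoral RNA were directional, per the labels' protocols. Trimmomatic 0.39, HISAT2 2.2.1, SAMtools 1.10 and Cufflinks 2.2.1, with build GRCm38, stand in the submitters' processing notes, with no roles. The sources used here do not say how strand entered the counting. For each gene the authors deposited an FPKM per group with bounds, and for the comparison a log2 fold, a statistic (a score), a p-value and a q-value, in the format of Cuffdiff, per the file headers. As there were 0 columns of single libraries, the q of the authors' deposited table under 0.05 was the call. Genes with the status NOTEST (39971) or HIDATA (5) were not tested. Where the tables disagreed (7 genes), FPKM came from the comparison table.

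Log2 folds were computed with a pseudocount of 0.1 in Python 3.11.15 (pandas 2.3.3, scipy 1.17.1). The 203 list entries (10 members and 14 other lists) all matched, 2 by a RefSeq synonym; where a symbol had several IDs, the highest FPKM was taken. The members and lists were chosen with earlier results of these data known. Named were the members, called genes of each list, up to 4 uncalled genes per list with the highest FPKM, and close relatives of members. Coordinates came from GENCODE vM21 (GRCm38). Depth was estimated from 1-exon, 1-transcript genes longer than 1500 bases, shortened by 255 bases. The adjustment and fold code was tested on simulated data. The alternatives were other q thresholds, filters, pseudocounts and scalings, a minimum fold, separate intervals and other uses of the test statistic. Replicates are separate mice per the design text, but only group values were used.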

Additional observations from a re-analysis of the deposited data

How the results depend on the processing

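No paired analysis was possible because only group values were deposited in the tables used here, and no library could be left out. The normal p and the minimum size of the test statistic (1.96) were chosen after seeing the data. Among the 10 plasma cell genes 1 was called (Jchain), 2 with q under 0.1 (Jchain and Irf4), and 0 with a minimum absolute log2 fold of 1 or with the normal p of the test statistic; the other 5 alternatives left Jchain as the 1 call. In every scaling and pseudocount 9 of the 10 had a log2 fold below 0, their median ranged from -0.23 to -0.16 and the fold of Jchain from -0.70 to -0.66. Over all genes the 146 calls (69 higher, 77 lower) became 72 (17 higher) with a minimum absolute log2 fold of 1, 69 (19 higher, 50 lower) with separate intervals and 25 (3 higher, 22 lower) with the normal p. The 8 calls among immunoglobulin constant genes became 4 with the minimum fold and 3 with the normal p. The 1 macrophage, 2 osteoblast and osteocyte and 3 muscle calls became 0 with the minimum fold and with the normal p; with separate intervals 0, 0 and 1 were left, and with q under 0.01 the macrophage call was lost (0). The medians of ER translocation, of survival and niche signals (-0.03 to 0.01) and of B cell identity factors changed sign with the groups scaled to an equal total, which raises log2 folds by 0.04. The interval width limits the low members, above all Tnfrsf17 and Derl3.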
